A study of Mus musculus with 6 samples.

Results

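The replication-dependent histone genes were taken as the protein-coding genes of the GENCODE vM21 annotation (mouse build mm10) whose symbol begins with Hist1h, Hist2h, Hist3h or Hist4h, which gave 67 of 21951 protein-coding genes. They code for 6 H1, 18 H2A, 18 H2B, 12 H3 and 13 H4 proteins and lie in 4 clusters: 54 genes in Hist1 on chromosome 13, 10 in Hist2 on chromosome 3, 2 in Hist3 on chromosome 11 and 1, Hist4h4, on chromosome 6. Acetylation of histone H3 at lysine 27 (H3K27ac), a mark of active promoters and enhancers, had been mapped by chromatin immunoprecipitation sequencing in B16 F10, a pigmenting mouse melanoma cell line. Cultures started at 100 cells per cm2 had been harvested on day 5 and separated by the side scatter of a flow cytometer into a low pigment (LP) and a high pigment (HP) population, with 2 libraries of each, and 1 immunoglobulin G (IgG) library of unsorted cells per replicate had served as the control of the peak calls. Both populations came from 1 cell line and differed only by the sort, with no drug or genotype between them, and nothing in the labels says that the replicates were separate cultures, so p-values measure the spread between these libraries only.

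Replication-dependent histone genes supply the core histones H2A, H2B, H3 and H4 and the linker histone H1 for packing newly made DNA and are transcribed mainly in S phase. Most lack introns, and their messages end in a conserved stem-loop in place of a poly(A) tail. Their promoters are known to hold TATA and CCAAT boxes and, at many H2B genes, an octamer element bound by Oct-1, and pairs of H2A and H2B genes are often read outward from a shared promoter.

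A gene was counted as having a peak in a library where a deposited peak lay within 1 kb of the gene, and its level was the highest summit there, as scaled pileup, the number of overlapping fragments per 1000000 fragments of the library. Every level given for a gene is in this unit. The libraries held from 11467942 (LP 1) to 15353176 (LP 2) fragments, so that 1 fragment was worth a scaled pileup of 0.0872 in LP 1 and 0.0651 in LP 2. The lists held 57942 peaks in LP 1, 66580 in LP 2, 64759 in HP 1 and 71529 in HP 2. A missing peak says that the caller's threshold was not reached and gives no level. The libraries were of bulk populations, in which fewer cells with the mark and less of the mark per cell cannot be told apart. Nearby histone genes often shared 1 peak, so they were not independent of each other.

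The sequences between 10 head-to-head pairs of histone gene starts, all of them an H2A and an H2B gene, were between 163 and 280 bases long (RefSeq starts, GRCm38.p6). 4 of these stretches are shown first, then 250 bases before the starts of Hist4h4 and Hist3h2a. They include genes with a peak in all 4 libraries and genes with none. Capitals mark 3 motifs on either strand. The TATA box was searched as TATAAA and the octamer as ATGCAAAT. The letters of the CCAAT box are its name, and no motif contains another. Hist1h2ae and Hist1h2bg shared a peak in all 4 libraries, Hist1h2ag and Hist1h2bj had the lowest HP to LP ratio, Hist1h2ak and Hist1h2bn had no peak, and Hist1h2ba and Hist1h2aa, made mainly in testis, had none either. Hist4h4 reached the highest summit of any histone gene in HP 2, a value it shared with Hist1h3c and Hist1h2bb, and Hist3h2a had the highest HP to LP ratio.
Hist1h2ae/Hist1h2bg (chr13:23571221-23571399, plus strand): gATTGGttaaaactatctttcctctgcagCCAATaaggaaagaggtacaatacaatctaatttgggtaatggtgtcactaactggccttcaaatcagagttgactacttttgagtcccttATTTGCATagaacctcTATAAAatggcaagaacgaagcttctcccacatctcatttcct
Hist1h2ag/Hist1h2bj (chr13:22042950-22043197, plus strand): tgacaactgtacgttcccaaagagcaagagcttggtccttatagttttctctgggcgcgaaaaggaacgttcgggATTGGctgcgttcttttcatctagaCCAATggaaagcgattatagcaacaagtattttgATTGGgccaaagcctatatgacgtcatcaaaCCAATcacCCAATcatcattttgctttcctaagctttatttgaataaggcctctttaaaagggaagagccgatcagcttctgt
Hist1h2ak/Hist1h2bn (chr13:21753913-21754075, plus strand): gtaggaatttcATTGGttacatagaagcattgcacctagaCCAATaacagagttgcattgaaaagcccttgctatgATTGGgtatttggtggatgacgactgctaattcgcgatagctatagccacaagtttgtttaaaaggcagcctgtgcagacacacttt
Hist1h2ba/Hist1h2aa (chr13:23934157-23934436, plus strand): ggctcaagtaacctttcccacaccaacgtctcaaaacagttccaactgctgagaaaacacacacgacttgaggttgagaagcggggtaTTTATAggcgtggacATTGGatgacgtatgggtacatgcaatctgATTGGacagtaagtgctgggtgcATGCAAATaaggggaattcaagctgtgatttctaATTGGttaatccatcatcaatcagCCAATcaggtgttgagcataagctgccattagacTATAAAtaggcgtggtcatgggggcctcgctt
Hist4h4 (chr6:136804432-136804681, minus strand): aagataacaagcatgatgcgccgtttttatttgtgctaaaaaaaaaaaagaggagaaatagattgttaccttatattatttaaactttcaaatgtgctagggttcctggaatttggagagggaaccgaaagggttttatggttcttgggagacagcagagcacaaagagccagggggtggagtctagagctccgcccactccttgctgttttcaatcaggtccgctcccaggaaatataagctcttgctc
Hist3h2a (chr11:58954435-58954684, plus strand): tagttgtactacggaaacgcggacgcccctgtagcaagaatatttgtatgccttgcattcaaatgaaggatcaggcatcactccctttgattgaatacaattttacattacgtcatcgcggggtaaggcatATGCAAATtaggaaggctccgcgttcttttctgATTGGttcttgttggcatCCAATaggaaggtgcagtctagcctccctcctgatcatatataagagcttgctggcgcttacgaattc

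In the 62 histone genes matched to a RefSeq promoter entry, 51 (82.3%) held a CCAAT box within 250 bases before the start, against 33.8% of all 32817 promoter entries. A TATA box was found in 29 (46.8%, against 12.4%) and the octamer in 13 (21.0%, against 1.60%). The median share of G and C in these 250 bases was 44.8% for the histone genes and 52.4% for all entries. The part of this base composition in the motif shares was not tested. The motifs were unevenly spread over histone types. All 18 H2A and all 16 H2B promoters matched held CCAAT, as did all 6 H1 promoters and 8 of 10 H3 promoters, but only 3 of 12 H4 promoters did. The octamer was present in 7 H2A and 6 H2B promoters and in no H1, H3 or H4 promoter. A motif between the starts of a head-to-head pair was counted for both genes. This held for the octamers of Hist1h2ae and Hist1h2bg, of Hist1h2ah and Hist1h2bk, and of Hist1h2ba and Hist1h2aa. Hist4h4, printed above, held none of the 3 motifs in this window. The 11 genes with no peak in any library were not short of them: 10 held CCAAT, 7 TATAAA and 3 the octamer, beside 29, 13 and 10 of the 35 matched genes with a peak in all 4 libraries.

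The stem-loop at the message's end was searched by its degenerate form of 16 bases on the strand of the gene, up to 300 bp past the annotated end. It was found for 65 of the 67 genes, in 8 versions. The most common version, in 40 genes, and the next, in 9, differ in the last base of the loop, shown in capitals:
common stem-loop: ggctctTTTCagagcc
next stem-loop: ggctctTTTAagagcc
The exceptions were Hist1h2an and Hist2h2be. In a window of 800 bases around the annotated end (500 before, 300 after), 49 of 67 histone genes and 0 of 4526 other protein-coding genes of the same 4 chromosomes held a match. 16 of the others have long gene models that put the stem-loop over 500 bases inside the annotated end. Genes with and without H3K27ac peaks both had it: 39 of 40 with a peak in all 4 libraries and 10 of 11 with none.

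H3K27ac marked the histone clusters unevenly, and the position of a gene along its cluster went with whether it had a peak. 40 of the 67 histone genes (59.7%) had a peak in all 4 libraries, beside 53.0% of all protein-coding genes, and 11 (16.4%) had none in any, beside 21.3%. With gaps of over 100 kb as borders, a division made after the values had been seen, Hist1 fell into 4 groups. Hist1-A (chr13:21715763-21837530) held 18 genes and none of them had a peak in all 4 libraries. Hist1-B (chr13:22035164-22043676) had 4 of 5 such genes and Hist1-C (chr13:23531050-23764406) had 24 of 29. Hist1-D (chr13:23933773-23934851) is the testis pair Hist1h2ba and Hist1h2aa and had no peak in any library. All 10 Hist2 genes (chr3:96219865-96270132) and Hist4h4 had a peak in all 4 libraries. Of the Hist3 pair, Hist3h2a had a peak in all 4 and Hist3h2ba in LP 1 only, at 0.436 and reaching 9 bp into its window.

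By histone type, a peak in all 4 libraries was found at 9 of 12 H3, 8 of 13 H4, 11 of 18 H2A, 9 of 18 H2B and 3 of 6 H1 genes. No type was missing from the acetylated set. The H1 genes with peaks in all 4 libraries were Hist1h1c, Hist1h1d and Hist1h1e, while Hist1h1b had a peak in HP 2 only and Hist1h1a and Hist1h1t, the testis H1, had none.

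**Figure D1:**
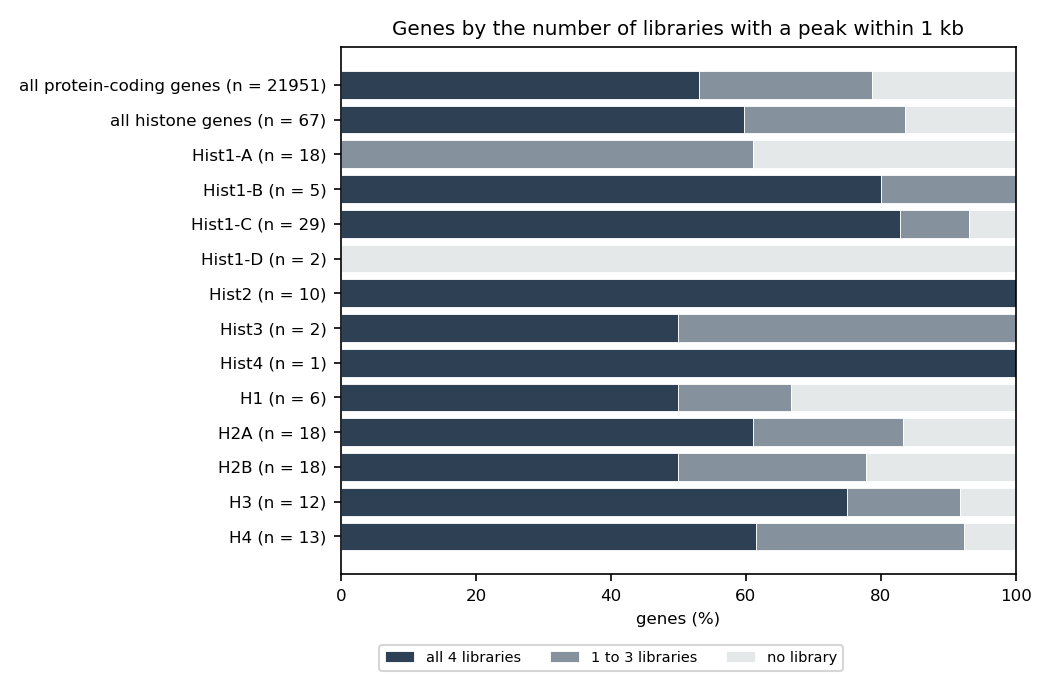
Share of genes (x axis, %) with a peak within 1 kb in all 4 libraries, in 1 to 3 of them or in none, for all 21951 protein-coding genes, all 67 histone genes, the groups along the chromosomes and the histone types. The 18 genes of Hist1-A have no dark bar, while all 10 Hist2 genes have a peak in all 4 libraries.

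The weakly marked group Hist1-A differed between libraries rather than between populations. Of its 18 genes, 3 had a peak in LP 1, 3 in LP 2, 0 in HP 1 and 11 in HP 2. Over all protein-coding genes the shares were 62.3% in LP 1, 68.0% in LP 2, 64.4% in HP 1 and 66.1% in HP 2. The highest summit in the group was at Hist1h4k, at 2.24 in HP 2 only. Hist1h2ai and Hist1h3h shared a summit of 0.847 in LP 2 and 1.33 in HP 2. Hist1h2bq, Hist1h2ao and Hist1h4m shared one of 1.22 in LP 1 and 1.54 in HP 2. All of these lay below the median of the histone genes with a peak in all 4 libraries, which was 3.400 in LP 1 and 6.41 in HP 2.

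The genes with no peak in any library were Hist1h2bm, Hist1h4j, Hist1h2ak, Hist1h2bn, Hist1h3i, Hist1h2an and Hist1h2bp of Hist1-A, Hist1h1t and Hist1h1a of Hist1-C, and Hist1h2ba and Hist1h2aa of Hist1-D. Reads from near-identical copies cannot be placed with certainty, and how the authors treated reads with several best positions is not given in the sources used here. As a measure of this, the share of 50-base stretches of a gene's window that occur more than once in the genome was computed, 50 bases being the shortest read kept. It was 100% for Hist1h2bq and Hist1h2br, 98.3% for Hist1h2ap, 97.9% for Hist1h2ao, 94.2% for Hist1h4m and 88.5% for Hist1h4n, whose peaks are uncertain for that reason. Among the 11 genes with no peak the share ran from 0 to 25% with a median of 13.4%, and among the 40 with a peak in all 4 libraries from 0.447 to 64.3% with a median of 13.8%. The 2 highest of the latter were Hist2h2aa2 and Hist2h2aa1, at 64.3% and 62.9%.

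The pattern of libraries was uneven as well, mainly through HP 2. HP 2 had a peak at 55 of the histone genes (82.1%, beside 66.1% of all protein-coding genes). The other libraries were nearer to the share of all genes. LP 2 had a peak at 47 (70.1%, beside 68.0%), LP 1 at 44 (65.7%, beside 62.3%) and HP 1 at 41 (61.2%, beside 64.4%). No histone gene had a peak in both HP libraries and neither LP library, beside 1.32% of all protein-coding genes, and none had a peak in both LP libraries and neither HP library, beside 1.37%. The incomplete patterns that did occur mostly involved HP 2: HP 2 alone at 5 genes (7.46%, beside 2.01% of all genes), LP 2 with HP 2 at 6 (8.96%, beside 1.90%) and LP 1 with HP 2 at 3 (4.48%, beside 0.770%). These counts repeat shared peaks. Hist1h2bq, Hist1h2ao and Hist1h4m shared a region, as did Hist1h4n, Hist1h2ap and Hist1h2br, all with the uncertain peaks named above. Hist1h2bl, Hist1h2ai and Hist1h3h also shared a region, as did Hist1h2bf, Hist1h2ad and Hist1h3d. Hist1h4i, an H4 gene of Hist1-B, had no peak in LP 1 and summits of 0.977 in LP 2, 1.83 in HP 1 and 2.39 in HP 2. Leaving out HP 1, 5 histone genes had a peak in HP 2 and in neither LP library (7.46%, beside 3.33% of all protein-coding genes).

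**Figure D2:**
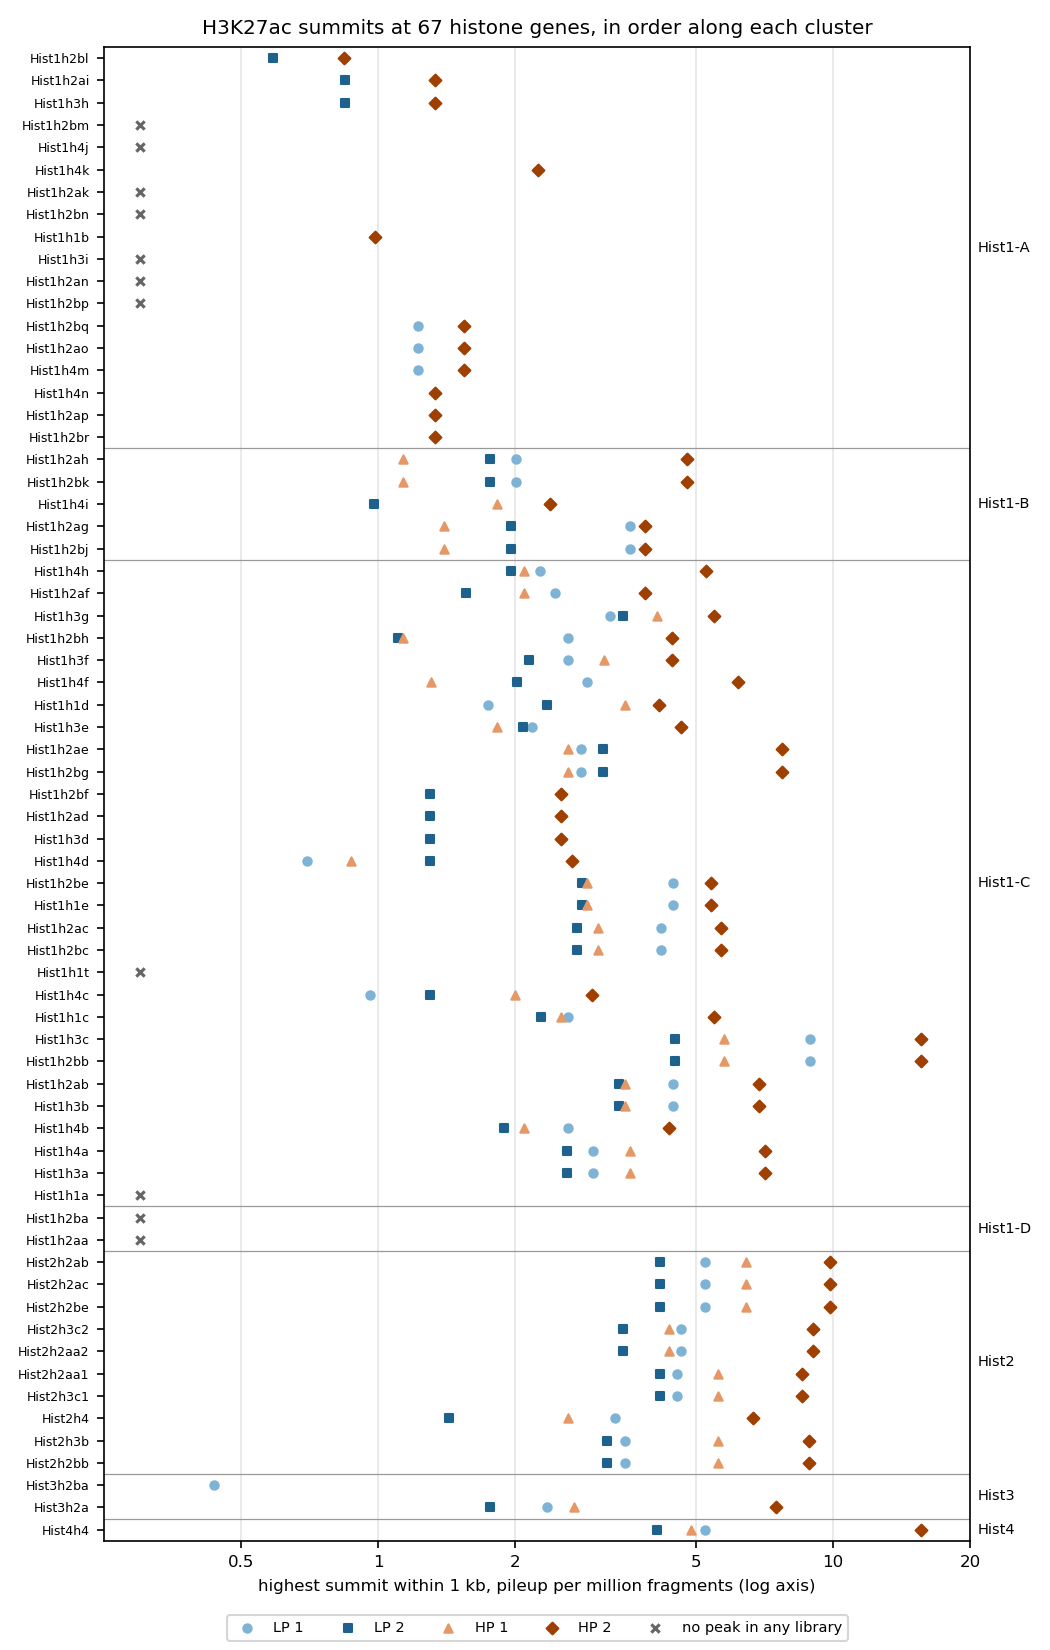
Highest H3K27ac summit within 1 kb of each of the 67 histone genes (x axis, scaled pileup in fragments per 1000000, log axis), in order along each cluster (y axis), with 1 point per library and a cross at genes with no peak in any library. HP 2 (diamonds) is the highest point at every gene with a peak in all 4 libraries, and Hist1-A carries few points.

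Among the core histone genes, the highest summits were within 1 kb of both an H3 and an H2B gene, and at Hist4h4. Hist1h3c and Hist1h2bb shared a summit of 8.89 in LP 1, 4.49 in LP 2, 5.75 in HP 1 and 15.6 in HP 2. Hist4h4 stood at 5.23 in LP 1, 4.10 in LP 2, 4.88 in HP 1 and 15.6 in HP 2. In both cases HP 1 lay inside the range of the LP libraries and HP 2 stood well above it, so the populations overlapped. The shared summit lay upstream of both starts, at offsets of -772 to -803 bp for Hist1h3c and -329 to -360 bp for Hist1h2bb. A separate, weaker region over Hist1h3c itself stood at 2.53 in LP 1, 2.48 in LP 2, 2.18 in HP 1 and 3.23 in HP 2 (log2 ratio 0.083).

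The H2A genes were led by the Hist2 cluster. Hist2h2ab and Hist2h2ac, with the H2B gene Hist2h2be, shared a summit of 5.23 in LP 1, 4.17 in LP 2, 6.44 in HP 1 and 9.82 in HP 2. Hist2h2aa1 shared 4.53, 4.17, 5.57 and 8.56 in the same order with the H3 gene Hist2h3c1. Both HP libraries were above both LP libraries at these genes. The H2B gene Hist2h2bb shared its summit with the H3 gene Hist2h3b, at 3.49 in LP 1, 3.19 in LP 2, 5.57 in HP 1 and 8.84 in HP 2, again without overlap. The H3 gene Hist2h3c2 stood at 4.62 in LP 1, 3.45 in LP 2, 4.35 in HP 1 and 9.05 in HP 2, where HP 1 fell between the LP libraries. The summit counted for Hist2h2aa1 lay 1467 to 1535 bp downstream of its start. Repeated 50-base stretches made up 62.9% of the window of Hist2h2aa1, 40.6% of that of Hist2h3c1 and 51.0% of that of Hist2h3c2. The values of these 3 genes are less certain for that reason.

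The remaining leading H4 genes were Hist1h4a and Hist2h4. Hist1h4a shared with the H3 gene Hist1h3a a summit of 2.96 in LP 1, 2.61 in LP 2, 3.57 in HP 1 and 7.09 in HP 2. Hist2h4 stood at 3.31 in LP 1, 1.43 in LP 2, 2.61 in HP 1 and 6.66 in HP 2. The first did not overlap between populations and the second did.

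Of the linker histone genes, Hist1h1e had the highest mean level, 3.88, between those of the H4 genes Hist2h4 (3.51) and Hist1h4a (4.06). Hist1h1e stood at 4.45 in LP 1, 2.80 in LP 2, 2.87 in HP 1 and 5.40 in HP 2, a summit counted also for Hist1h2be, whose gene model overlaps it. Hist1h1c stood at 2.62 in LP 1, 2.28 in LP 2, 2.53 in HP 1 and 5.47 in HP 2. Hist1h1d stood at 1.74 in LP 1, 2.34 in LP 2, 3.48 in HP 1 and 4.14 in HP 2 and was the only one of the 3 whose populations did not overlap.

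The comparison of HP with LP asked whether the acetylation of histone genes differs between pigmented and less pigmented cells. On the scaled pileup, the histone genes leaned towards HP, as all genes tested did, and with a lower median ratio than all genes tested. The direction turned when the libraries were centred on their medians, and no histone gene passed the test. limma was fitted to log2 scaled pileup over the 11645 protein-coding genes with a peak in all 4 libraries, with Benjamini-Hochberg adjustment. Of the 40 histone genes tested, 0 were higher and 0 were lower at an adjusted p of 0.05, beside 1.15% of all genes tested higher and 0.0172% lower. Before adjustment, 2 of the 40 (5%) were higher and 0 lower at a p under 0.05, beside 30.9% of all genes tested higher and 0.0945% lower. The adjusted p of the histone genes ran from 0.147 to 0.795, and limma gave each gene the same standard error, 0.55 on the log2 scale. Over the 40 histone genes the fitted log2 ratio, HP over LP, had a median of 0.61, beside 0.88 over all genes tested, and 38 of the 40 were above 0 (95%, beside 95.9% of all genes).

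The replicates differed at the histone genes. Between HP 1 and LP 1 the median log2 ratio was -0.10 over the histone genes and 0.50 over all genes tested, and 25 of the 40 histone genes (62.5%) were lower in HP 1 than in LP 1, beside 21.3% of all genes. Between HP 2 and LP 2 the medians were 1.25 and 1.26, and all 40 were higher in HP 2. As a result both HP libraries lay above both LP libraries at 14 of the 40 histone genes (35.0%), beside 70.5% of all genes tested. Both HP libraries lay below both LP libraries at 0, beside 1.79%.

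Within HP, the median log2 ratio of HP 2 to HP 1 was 1.02 at the histone genes and 0.66 at all genes. Within LP, that of LP 2 to LP 1 was -0.33 and -0.08. HP 2 was the highest library at all 40 histone genes, beside 83.8% of all genes. The median level of the 40 was 3.400 in LP 1, 2.74 in LP 2, 3.05 in HP 1 and 6.41 in HP 2, and that of all genes tested was 2.88, 2.996, 4.44 and 7.51. The calls changed when HP 1 was left out. Without HP 1, 18 of 40 histone genes were higher in HP, beside 48.1% of all genes tested in that fit. The fit had HP 2 as the only HP library, assumed to vary like the others. Its median log2 ratio was 1.17 over the histone genes and 1.20 over all genes tested. Whether HP 1 was low or HP 2 high cannot be told from 2 HP libraries. Without HP 2 the median of the histone genes was 0.02. Subtracting from each library its median over these genes removes a shift of 0.98 on the log2 scale; the median of the histone genes was then -0.37 beside -0.10 for all genes, and 36 of 40 were below 0 (90.0%, beside 59.7%).

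**Figure D3:**
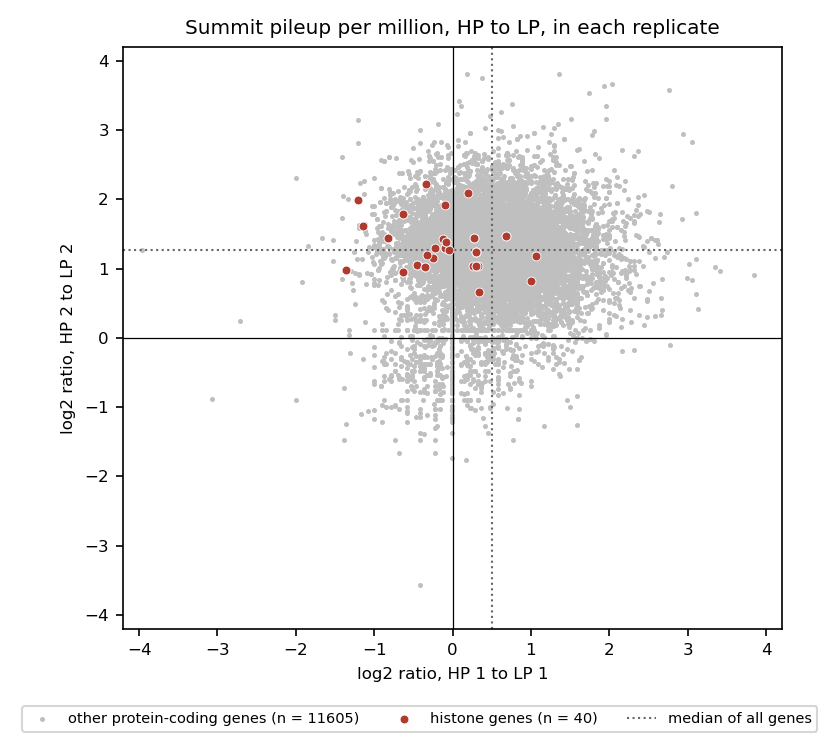
log2 ratio of the scaled pileup at the highest summit in replicate 1 (x axis, HP 1 to LP 1) against replicate 2 (y axis, HP 2 to LP 2) for 40 histone genes (red) and 11605 other protein-coding genes (grey), with dotted lines at the medians of all genes. All histone genes lie above 0 on the y axis and 25 of 40 lie below 0 on the x axis.

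By type, the median log2 ratio was 0.77 for H4, 0.65 for H3, 0.61 for H1, 0.60 for H2A and 0.39 for H2B genes, all under the median of all genes tested. The types were not compared with each other by a test. By place, it was 0.77 in Hist2, 0.56 in Hist1-C and 0.06 in Hist1-B. In replicate 1 alone it was 0.30 in Hist2, -0.24 in Hist1-C and -1.09 in Hist1-B.

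The highest ratios were at Hist3h2a and Hist1h4c. Hist3h2a, an H2A gene outside the large clusters, stood at 2.35 in LP 1, 1.76 in LP 2, 2.70 in HP 1 and 7.51 in HP 2 (log2 ratio 1.15, limma adjusted p = 0.147). Hist1h4c stood at 0.959 in LP 1, 1.30 in LP 2, 2.00 in HP 1 and 2.95 in HP 2 (log2 ratio 1.12, limma adjusted p = 0.152). Both HP libraries were above both LP libraries at these genes, and Hist1h4c was among the weakest summits of the tested set. The lowest ratio belonged to the pair Hist1h2ag and Hist1h2bj, at 3.58 in LP 1, 1.95 in LP 2, 1.39 in HP 1 and 3.86 in HP 2 (log2 ratio -0.19, limma adjusted p = 0.758). There the LP libraries lay between the HP libraries. Hist1h2ah and Hist1h2bk, the neighbouring pair in Hist1-B, had the same order, with 2.01 in LP 1, 1.76 in LP 2, 1.13 in HP 1 and 4.77 in HP 2.

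Counting each merged region of the 4 lists once, in place of genes, left 63 regions at histone genes, of which 31 were present in all 4 libraries (49.2%, beside 6.60% of all 182956 regions). 16 of these 31 lay within 1 kb of more than 1 histone gene. 1 of the 31 was higher in HP, beside 4.01% of all regions tested. It lies at the start of Hist2h2be (chr3:96221166-96222179, with the annotated start at 96221119). It is weaker than the shared summit near Hist2h2ab that gave the gene its level above. That shared summit lay upstream of Hist2h2be, at offsets of -426 to -1140 bp from its start. The summit of the called region was 0.436 in LP 1, 0.847 in LP 2, 2.18 in HP 1 and 3.44 in HP 2 (log2 ratio 2.17, limma adjusted p = 0.0329 over regions). The pileups behind these values were 5, 13, 25 and 49 fragments, and the LP 1 summit lay 787 bp from the start of the region against 143, 334 and 345 bp in the others. With peaks limited to the gene body, 105 of all 11158 genes tested were higher in HP. Of the 36 histone genes tested there, only Hist2h2be was called (log2 ratio 2.17, limma adjusted p = 0.0322). It was named after its values had been seen.

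**Figure D4:**
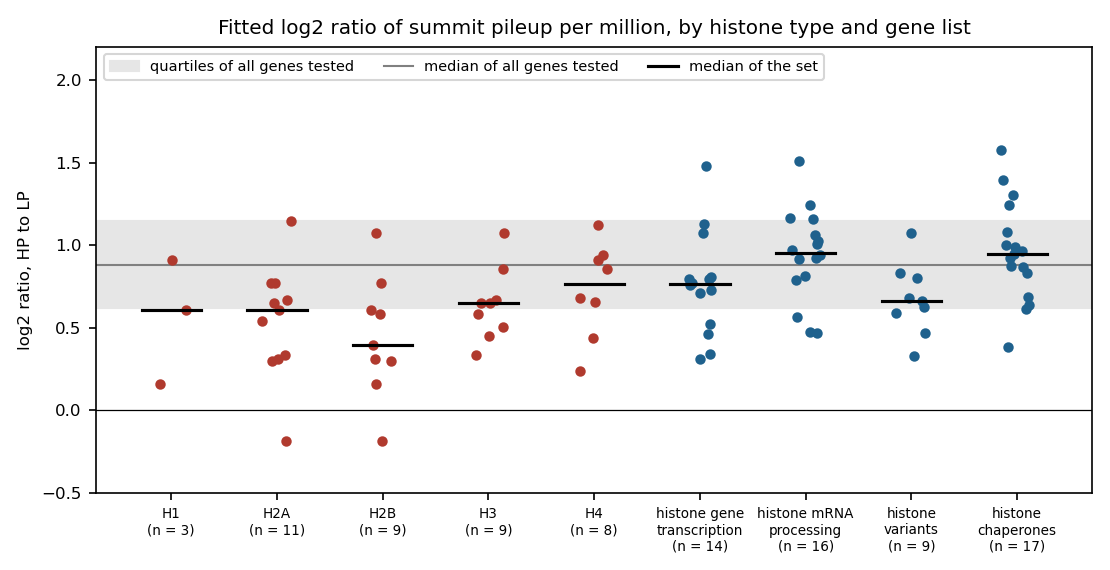
Fitted log2 ratio of HP to LP (y axis) for the histone genes tested, by type (red), and for the genes of 4 related lists (blue), with the median of each set as a black bar and the median and quartiles of all 11645 genes tested in grey. The black bar of each histone type lies below the grey median, and that of the H2B genes is the lowest, 0.39.

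In all 4 libraries the median summit lay downstream of a histone gene's start. Over the 39 histone genes with a peak within 1 kb of a start in all 4 libraries, the median offset was 164 bp in LP 1, 148 in LP 2, 142 in HP 1 and 153 in HP 2, beside 85.5, 117, 115 and 110 bp over 9936 protein-coding genes. Between 23 and 26 of the 39 summits (59.0 to 66.7%) fell within 500 bp downstream of the gene's own start, beside 66.2 to 70.1% over all genes. The upstream ones were largely shared summits that lay downstream of the partner's start, such as that of Hist1h2ae and Hist1h2bg in HP 2, at an offset of 224 bp from the first start and -400 bp from the second.

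The stretch of histone gene windows under peaks was also the longest in HP 2, with the other libraries in another order than by median level. Of 199386 bp in the merged windows, 20656 bp (10.4%) lay under peaks in LP 1, 28927 (14.5%) in LP 2, 28784 (14.4%) in HP 1 and 45658 (22.9%) in HP 2. LP 2 and HP 1 were nearly equal and HP 2 was the highest. The means were 24792 ± 5848 bp in LP and 37221 ± 11932 bp in HP (SD, n = 2 each), a ratio of 1.501, and an exact two-sided permutation test gave p = 0.667, where 0.333 is the smallest that 2 against 2 libraries allow. The whole lists gave a ratio of 1.54 and all protein-coding gene windows 1.63. Hist2 was the most covered cluster, with 28.4% in LP 1, 37.2% in LP 2, 41.8% in HP 1 and 52.5% in HP 2. These shares depend on the length of the gene models. The merged windows were 22165 bp in Hist2 and 114468 bp in Hist1-C, where the model of Hist1h2be alone spans 37455 bp. In Hist1-A the shares were 0.434, 1.67, 0 and 3.72%. HP 1 was the lowest library there and in Hist1-B, where the shares were 12.7, 25.5, 10.3 and 36.8%.

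**Figure D5:**
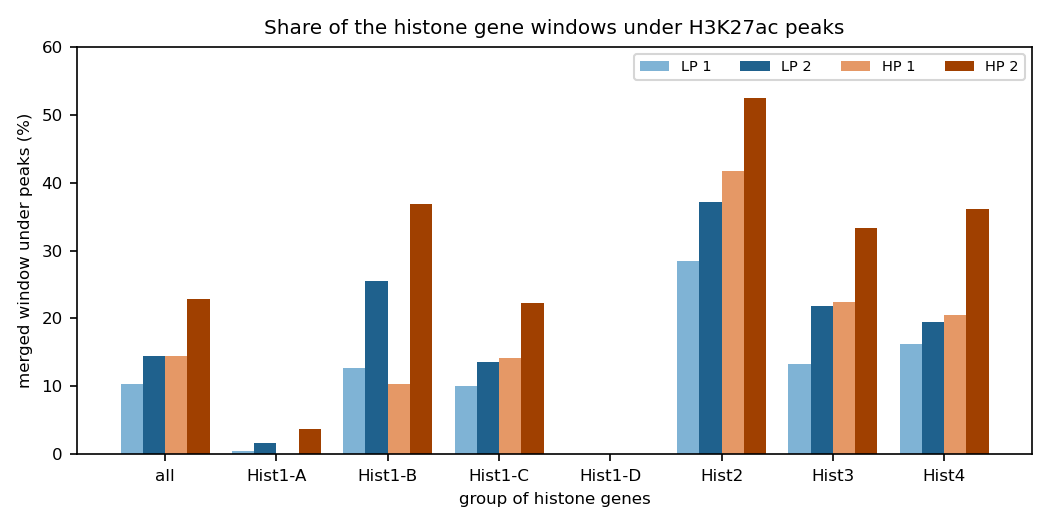
Share of the merged windows of histone genes under H3K27ac peaks (y axis, %), per library (bars) and group (x axis), with no bar where no base was covered. HP 2 has the tallest bar in each group with peaks, and HP 1 has the shortest in Hist1-A and Hist1-B.

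Few of the genes between the histone genes had a peak in all 4 libraries. Hist1 encloses 49 other protein-coding genes, of which 5 had a peak in all 4 libraries (Zfp184, Prss16, Zfp322a, Abt1 and Hfe) and 26 had none. Over all protein-coding genes, 53.0% had a peak in all 4 libraries and 21.3% had none. 36 of the 49 were Vmn1r genes, which code for vomeronasal receptors of sensory neurons, and 24 of these had no peak. Zfp322a, a zinc finger gene, was the highest of the 5 in HP 2, at 2.09 in LP 1, 2.996 in LP 2, 4.35 in HP 1 and 7.02 in HP 2. Hist2 encloses no other protein-coding gene.

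Genes that act on histone genes or their products had peaks almost throughout, and none of them passed the test. For all lists below, the share of all protein-coding genes with a peak in all 4 libraries was 53.0%. Of 15 genes of histone gene transcription, 14 had a peak in all 4 libraries and 0 were higher and 0 lower (limma), 2 (14.3%) having an unadjusted p under 0.05 in the higher direction, beside the 30.9% of all genes tested, and the median log2 ratio was 0.77. One of these, Cdk2, a kinase of S phase entry, shares its summit with its neighbour Pmel, a melanocyte gene of the pigment granule. Npat, the coactivator of histone genes at the histone locus body, stood at 3.31 in LP 1, 3.32 in LP 2, 4.53 in HP 1 and 11.6 in HP 2 (log2 ratio 1.13, limma adjusted p = 0.151). Hinfp, which binds H4 promoters, stood at 3.58, 2.996, 5.05 and 9.40 in the same order (log2 ratio 1.07), and Casp8ap2, a histone locus body protein, at 4.10, 3.58, 6.10 and 7.37 (log2 ratio 0.81). All 3 had both HP libraries above both LP libraries. This order was found at 9 of the 14 tested genes of the list, beside 70.5% of all genes tested.

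For processing of histone messages, all 16 genes listed had a peak in all 4 libraries, 0 passed in either direction (limma), 4 (25%, beside 30.9% of all genes) were higher at an unadjusted p under 0.05, and the median log2 ratio was 0.95. Slbp, the protein that binds the stem-loop printed above, stood at 4.10 in LP 1, 3.78 in LP 2, 3.57 in HP 1 and 12.9 in HP 2 (log2 ratio 0.79), with HP 1 below both LP libraries. Lsm11, of the U7 particle that helps cut the message, had a log2 ratio of 0.47.

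Of 11 replication-independent histone variants, 9 had a peak in all 4 libraries and 0 passed (limma), with 0 also at an unadjusted p under 0.05, beside 30.9% of all genes higher. Their median log2 ratio was 0.66, with 0.19 in replicate 1 and 1.13 in replicate 2. H1f0, the linker histone of resting and differentiated cells, was far above the replication-dependent H1 genes, at 25.6 in LP 1, 14.3 in LP 2, 24.6 in HP 1 and 28.3 in HP 2 (log2 ratio 0.46). H2afz, which codes for H2A.Z, stood at 8.72, 5.54, 8.27 and 13.9, H2afx, which codes for H2A.X, at 4.53, 4.95, 4.44 and 7.997, and H3f3b, which codes for H3.3, at 3.23, 5.21, 6.18 and 12.1 in the same order. Of the 9 variants, 4 (H3f3a, H3f3b, H2afy and H2afj) had both HP libraries above both LP libraries, beside 70.5% of all genes tested.

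Of 18 histone chaperones, 17 had a peak in all 4 libraries and 0 passed (limma), with 5 (29.4%, beside 30.9% of all genes) higher at an unadjusted p under 0.05 and a median log2 ratio of 0.95. Chaf1a, a subunit of the assembly factor that deposits histones on replicated DNA, stood at 4.80 in LP 1, 4.88 in LP 2, 9.32 in HP 1 and 9.61 in HP 2 (log2 ratio 0.97). Asf1b, the chaperone of proliferating cells, had no peak in LP 1 and stood at 0.847 in LP 2, 2.00 in HP 1 and 2.53 in HP 2. These are values from the lists and were not compared with the histone genes by a test.

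All 8 melanocyte genes checked (among them Mitf, Tyr and Tyrp1) had a peak in all 4 libraries, as the label of the cells has it, with a median log2 ratio of 1.22. Of 9 markers of other cell types, 1 (Pecam1) had a peak in all 4 libraries, Krt5 and Acta1 had none, and the other 6 had a peak in 1 or 2 libraries. Summed over the melanocyte genes the level was 13.1 in LP 1, 12.4 in LP 2, 25.3 in HP 1 and 38.3 in HP 2, and its part in the differences at histone genes was not tested.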

How the data were processed

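Chromatin of low and high pigment B16 F10 cells, fixed for 10 min, was precipitated with an H3K27ac antibody and sequenced in 4 libraries. Per the labels and the study's methods, the authors demultiplexed with bcl2fastq 2.20, trimmed with Trimmomatic 0.33 and fastp, aligned with Bowtie2 2.5.1 to mm10, removed duplicates with samtools and called peaks in each library with MACS3 (3.0.0b1 in the file headers) with the IgG library of each set as control. The treatment of reads with several positions is not given in the sources used here. The deposited signal is the pileup at each summit, in fragments, and the deposited lists also give −log10 of the q-value and the fold over control as a ratio, of which the q-value set 2 alternatives and the fold no result. The deposited p-values (−log10) were not used.

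Pileup was scaled to 1000000 fragments of the library (11467942 to 15353176), which sets the precision, with counting error only. Peaks were assigned to GENCODE vM21 genes within 1 kb. log2 values were tested with limma 3.58.1 (R 4.3.3) over all protein-coding genes with a peak in all 4 libraries, with no pseudocount, Benjamini-Hochberg adjustment and a threshold of 0.05. Genes without a peak in some library were left out of the fit, with no value imputed. The procedure was tested on simulated data. Python 3.11.15, pandas 2.3.3, numpy 2.4.6 and matplotlib 3.10.9 did the rest. Promoters came from RefSeq (GRCm38.p6), with an entry for 62 of the 67 genes.

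The named histone genes were the 3 with the highest mean level of each type among those tested, the 2 with the highest and the 2 with the lowest ratio, those past the threshold, those of testis, those with no peak, and the genes of Hist3 and Hist4, with 11 fixed genes of the other lists; any other histone gene with values was named after its values were seen. The members, lists and rules were chosen with earlier results of these data known. Replicate numbers pair the libraries, since the labels tie each set to equal DNA input and a shared IgG library; over 11645 genes the LP and HP replicate differences had r = 0.0113.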

Additional observations from a re-analysis of the deposited data

How the results depend on the processing

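A histone gene count of 40 with a peak in all 4 libraries fell to 14 when peaks at more than 1 histone gene were dropped, and ran from 40 to 47 with a library or replicate left out. Genes with a peak in both HP and neither LP library rose from 0 to 3 with such peaks dropped and ran from 0 to 8 with leave-outs (5 without HP 1, beside 3.33% of all genes, and 8 without replicate 1, beside 5.22%, against 1.32% with all 4 libraries). Histone genes higher in HP went from 0 to 1 with gene bodies only and to 1 with merged regions, which give no value per gene, and ran from 0 to 18 with leave-outs, 18 being without HP 1. None was lower under any alternative run. The median log2 ratio of 0.61 became -0.37 with centring and -0.36 with quantile normalization, and ran from -0.10 to 1.24 with leave-outs. The ratio of covered bp ran from 1.16 to 1.84. With the replicate block, 0 histone genes were called and their lowest adjusted p (limma) was 0.167, while the genes higher over all 11645 tested went from 134 to 59. The block changed no call at a histone gene.

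With centring, negative log2 ratios were found at Hist1h1e (-0.82), Hist1h1c (-0.37), Hist1h1d (-0.067), Hist2h2ab, Hist2h2ac and Hist2h2be (-0.21), Hist2h2aa1 and Hist2h3c1 (-0.31), Hist1h2bb and Hist1h3c (-0.39), Hist2h3c2 (-0.32), Hist4h4 (-0.064), Hist1h4a (-0.12), Hist2h4 (-0.038), Casp8ap2 (-0.17), Slbp (-0.19), Lsm11 (-0.51), Chaf1a (-0.0083), H2afz (-0.35), H2afx (-0.64) and H1f0 (-0.51). With quantile normalization they were found at Hist1h1e (-0.79), Hist1h1c (-0.41), Hist1h1d (-0.13), Hist2h2ab, Hist2h2ac and Hist2h2be (-0.13), Hist2h2aa1 and Hist2h3c1 (-0.27), Hist1h2bb and Hist1h3c (-0.15), Hist2h3c2 (-0.26), Hist1h4a (-0.12), Casp8ap2 (-0.15), Slbp (-0.11), Lsm11 (-0.53), H2afz (-0.14), H2afx (-0.64) and H1f0 (-0.023). The mean of the summits gave -0.20 at Hist1h1e, -0.51 at Chaf1a and -0.018 at H3f3b, and windows of 3 kb gave 0.0072 at Hist1h2ag and Hist1h2bj. With leave-outs, Hist1h2ag and Hist1h2bj ran from -0.92 to 0.55, Hist1h1e from -0.30 to 0.61, Hist1h2bb and Hist1h3c from -0.14 to 1.30, Slbp from -0.14 to 1.71 and H2afx from -0.093 to 0.76. The cause was not tested.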
